A study of Mus musculus with 10 samples.

Results

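The enzymes of heme synthesis were followed in the hypothalamus of mice bearing C26, a transplanted mouse colon adenocarcinoma whose hosts waste and so serve as a cachexia model. The 8 genes were Alas1, Alas2, Alad, Uros, Urod, Cpox, Ppox and Fech, out of 18820 genes with a probe set of their own on the array. Each gene had exactly 1 probe set that the platform annotation paired with it alone, and that probe set stood for the gene. All 8 were bright enough to be tested.

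All mice were male CDF1 animals, a cross of BALB/c and DBA/2, aged 10 to 11 weeks and housed singly on a standard diet. Tumour-bearing mice had received 1000000 C26 cells in 0.2 ml of Hanks' balanced salt solution under the skin of the right groin, and controls a sham injection of 0.2 ml of the solution alone. The hypothalamus was taken on day 20. There were 3 control and 5 tumour-bearing mice on 1 array each, and 2 further arrays held pooled RNA, one of 4 controls and one of 5 tumour-bearing animals. The labels give neither tumour mass nor weight loss per animal, and they do not say whether the pools hold the same mice.

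Heme is an iron-bearing ring that cytochromes, globins, catalase and nitric oxide synthase need. Its synthesis starts in the mitochondrion, where 5-aminolevulinate synthase joins glycine and succinyl-CoA, continues in the cytosol, and ends in the mitochondrion again, where ferrochelatase inserts iron. The first step has a pair of isoenzymes: Alas1 is used by nearly all cells, including neurons and glia, and is repressed by heme, while Alas2 is the form of developing red cells and is matched to their iron supply.

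None of the 8 enzymes passed the threshold of an adjusted p of 0.05 (limma fitted over 22837 probe sets with Benjamini-Hochberg adjustment), against 0.0569% of all tested probe sets. Alas2 and Urod were the only enzymes whose groups did not overlap: Alas2 was higher in all 5 tumour-bearing mice than in any control, and Urod was lower in all 5. Such a separation, with the tumour group higher, was seen in 3.28% of the tested probe sets, and with the tumour group lower in 4.17%. At an unadjusted p under 0.05 there were 2 of 8 enzymes, the same pair, where the share over all tested probe sets was 10.5%, with 4.71% higher and 5.82% lower. The other 6 differed by 0.017 to 0.065 on the log2 scale in size, with overlapping groups. Of the 8 differences 2 were above 0 and 6 below, with a median of -0.045, against -0.0031 over all tested probe sets.

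**Figure D1:**
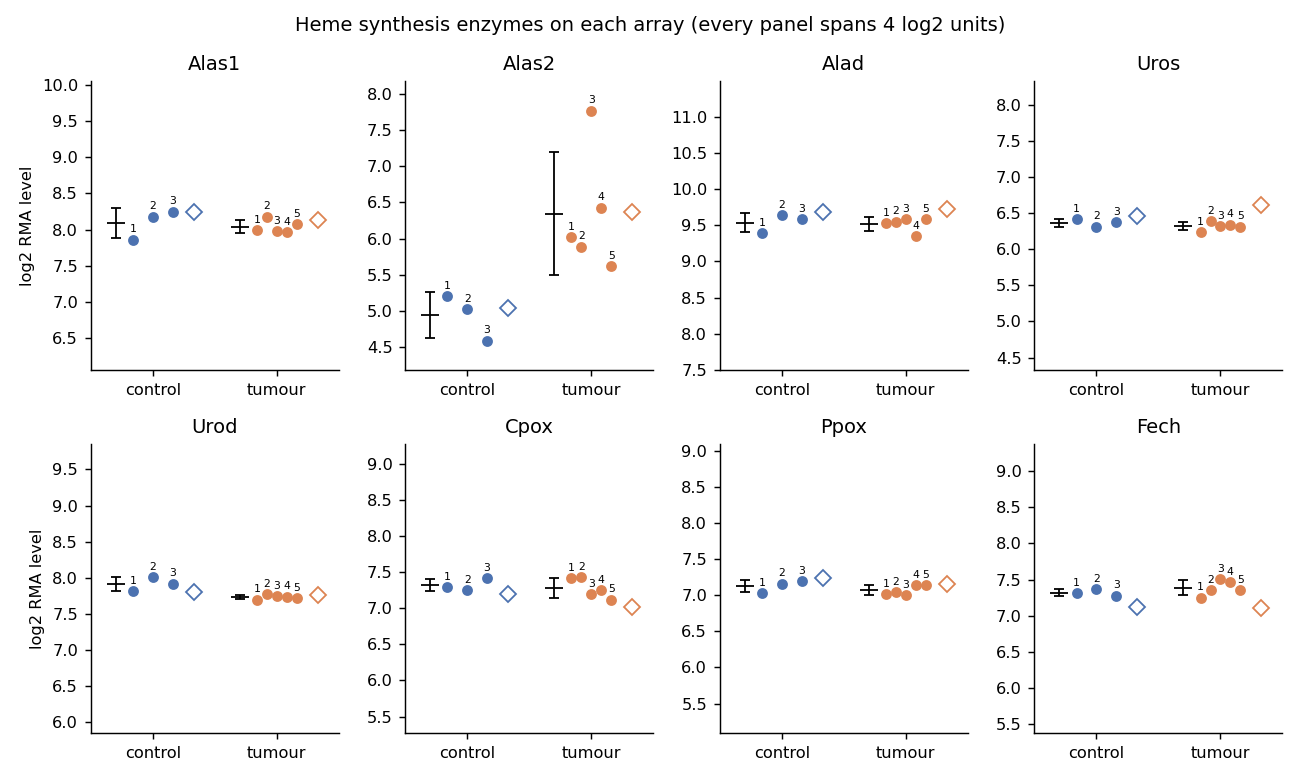
Log2 RMA level (y axis) of each heme synthesis enzyme in control and tumour-bearing mice, with filled points for single mice numbered as in the labels, bars for mean ± SD beside them, and open diamonds for the pools of 1 array per group. Every panel spans the same number of log2 units. The Alas2 points separate by group, with tumour-bearing mouse 3 at 7.77, while in the other panels the groups lie close together.

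Alas2, which encodes the red cell form of the first and rate-limiting enzyme, had the largest difference of the 8. Its log2 level was 5.21, 5.02 and 4.59 in controls 1, 2 and 3, and 6.02, 5.89, 7.77, 6.43 and 5.62 in tumour-bearing mice 1 to 5. Mouse 3 stood highest, and the lowest tumour-bearing mouse was still 0.414 above the highest control. The group means were 4.94 ± 0.32 (SD, n = 3) and 6.35 ± 0.85 (SD, n = 5). This is a 2.66-fold difference on the deposited scale (log2 1.41 ± 0.42 SE, 95% interval 0.46 to 2.36, limma adjusted p = 0.306). The spread among tumour-bearing mice, from 5.62 to 7.77, was itself larger than the difference between the means. In the pools, which entered no test, the level was 5.04 for controls and 6.37 for tumour-bearing mice, a difference of 1.32. A pool difference above 1 in this direction was found for 0.32% of the tested probe sets, and one beyond 1 in the other direction for 0.342%.

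Genes of neighbouring tissues also had different values in the tumour-bearing mice, and their part in the Alas2 difference was not tested. The summed linear level of 10 midbrain genes was 2890 to 3350 in controls and 1050 to 2770 in tumour-bearing mice, and it was lowest in mouse 3, which had the most Alas2. In order of rising Alas2, tumour-bearing mice 5, 2, 1, 4 and 3 were at 1690, 2770, 1650, 1650 and 1050. Mouse 2 alone stood out of a level or falling order. Controls 3, 2 and 1, again by rising Alas2, were at 3220, 3350 and 2890. The tumour-bearing pool, with an Alas2 level of 6.37, was at 2510 and the control pool at 2830. A score was made from the 9 of those genes that were bright enough to be tested. With it as a covariate, the Alas2 difference was 0.33 ± 0.44 SE (limma adjusted p = 0.98, against 0.118 to 0.98 over all alternatives). The summed midbrain level did not overlap between the 2 groups of single mice, so such a covariate is hard to separate from the group itself. Growth hormone, Gh, a pituitary hormone gene, was at 10.45 and 10.48 in tumour-bearing mice 3 and 4 and at 9.82 in the tumour-bearing pool. It was at 4.76, 5.51 and 4.87 in tumour-bearing mice 1, 2 and 5. The controls were at 4.24, 4.45 and 4.21 and their pool at 4.37. All 5 tumour-bearing mice were thus above every control for Gh, a separation seen in 3.28% of the tested probe sets. The 3 arrays with the highest Gh, mice 3 and 4 and the tumour-bearing pool, also had the highest Alas2 levels. Without mice 3 and 4 the Alas2 difference was 0.91 ± 0.19 SE (limma adjusted p = 0.367). Mice 1, 2 and 5 were still all above the controls for Alas2, as they were for Gh. In whole tissue, more cells of a type and more RNA per cell cannot be told apart.

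Of 27 listed red cell genes, 18 had a probe set of their own, among them none of the adult globin genes. The lineage factors Gata1 and Klf1 and 10 others lay below the filter level of 4.32 on all 8 individual arrays. The remaining 6 were tested with limma, 0 were called, 0 had an unadjusted p under 0.05, and their median difference was -0.035, with 2 differences above 0 and 4 below. The summed linear level of the 18 genes was 715 to 754 in controls and 667 to 758 in tumour-bearing mice, so it overlapped. Sptb, Mkrn1 and Bpgm weigh most in that sum, at 7.60 to 8.02, 7.60 to 7.71 and 6.52 to 6.93 on the individual arrays. A change in the fainter genes could therefore be hidden in it. Slc4a1, the anion exchanger of the red cell membrane, was chosen after its values were seen: its levels were 3.72, 4.03 and 3.62 in controls and 4.43, 4.35, 5.96, 4.29 and 4.02 in tumour-bearing mice. All 3 controls were under the filter level and it passed through 3 tumour-bearing mice alone, so its means, which differed by 0.82, are given as a description. The difference was 0.35 with values under the filter level raised to it and -0.041 with the midbrain covariate. Tal1, a transcription factor gene of the same list, was also chosen after its values were seen. It was at 4.77, 4.83 and 4.76 in controls and 4.69, 4.59, 4.35, 4.58 and 4.61 in tumour-bearing mice. Which cells of the tissue its RNA came from was not tested. Tal1 was thus lower in all 5 (-0.22 ± 0.12 SE, limma adjusted p = 0.545). Such a separation was seen in 4.17% of the tested probe sets. Of the 6 tested red cell genes, 1 separated in this direction and 0 in the other. In the pools Tal1 was at 5.29 for controls and 4.65 for tumour-bearing mice. Among the individual arrays the lowest Tal1 level was in mouse 3, where Slc4a1 was highest and the summed midbrain level lowest. The part of blood left in the tissue in the Alas2 difference was not tested.

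**Figure D2:**
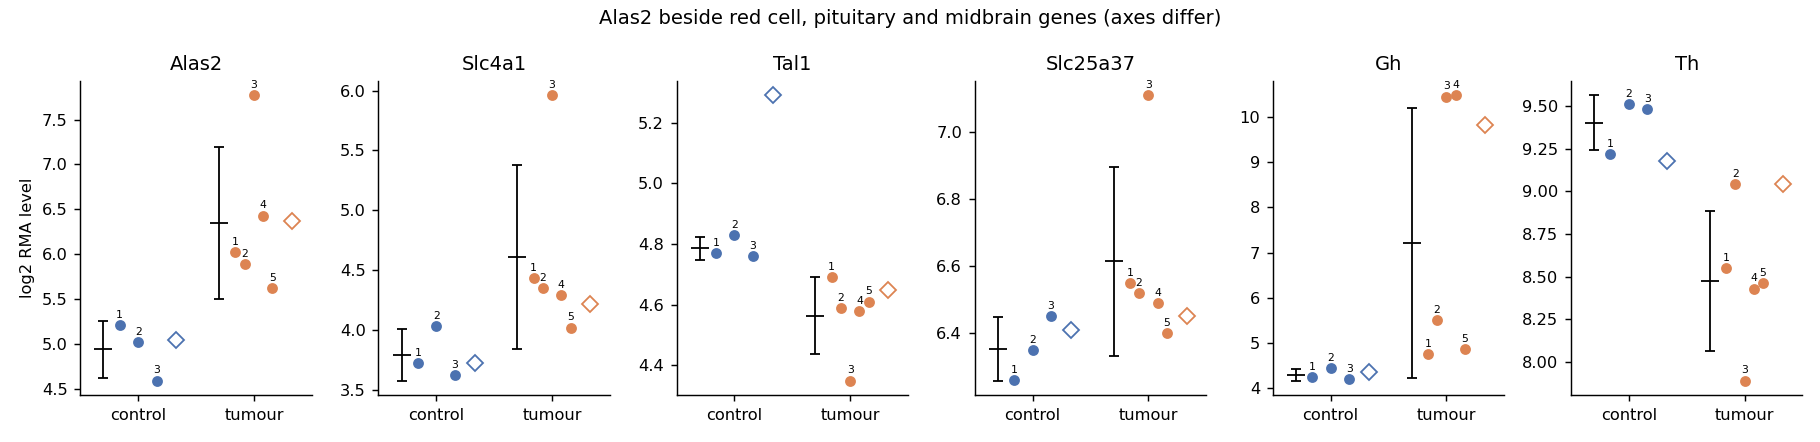
Log2 RMA level (y axis, different range in each panel) of Alas2, the red cell list genes Slc4a1 and Tal1, the mitochondrial iron importer Slc25a37, the pituitary gene Gh and the dopamine gene Th, with numbered points for single mice, bars for mean ± SD and open diamonds for the pools. Mouse 3 of the tumour-bearing group is highest for Alas2, Slc4a1 and Slc25a37, shares the high Gh level with mouse 4, and is lowest for Tal1 at 4.35 and Th at 7.89.

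The 3 genes with the highest positive correlation to Alas2 over the 8 individual arrays, of 12977 searched, were Ak7, Tent5c and Yipf4. Genes that ran opposite to Alas2 were not ranked. Ak7 encodes an adenylate kinase and had a Pearson r of 0.973 and a Spearman rho of 0.952 with Alas2. For Tent5c, a poly(A) polymerase gene, they were 0.969 and 0.952, and for Yipf4 0.959 and 0.905. Leaving out tumour-bearing mouse 3 and control 3, the arrays farthest from the Alas2 median, r was 0.909, 0.92 and 0.846 in that order. Tent5c was at 7.26 in mouse 3 and at 4.95 to 6.05 on the other 7 arrays. As the best of so many genes on arrays that share 2 groups, these values are a description, and no p is given.

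Alas1, the form used by brain cells, did not share the pattern. Its log2 level was 7.86, 8.18 and 8.25 in controls and 7.99, 8.18, 7.98, 7.97 and 8.08 in tumour-bearing mice, with every tumour-bearing mouse inside the control range. The difference was -0.057 ± 0.088 SE (95% interval -0.26 to 0.14, limma adjusted p = 0.875). The control spread came largely from control 1, without which the difference was -0.17, while without control 3 it was 0.019. The pools were at 8.25 and 8.13. The interval for Alas2 begins at 0.46, above the upper end of that for Alas1, but the difference between the isoenzymes was not itself tested.

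The sequence upstream of Alas2 is shown beside that of Alas1, which encodes the same step, of Cpox, a later enzyme with the same motifs, and of Urod, the other enzyme whose groups did not overlap. The stretches are from RefSeq, build GRCm38.p6, end just before the annotated gene, and are written 5′ to 3′ on the gene's strand. RefSeq windows matched 7 of the 8 enzymes, all but Fech. Capitals mark matches, on either strand, to GATAA (the core bound by GATA factors, read as TTATC on the other strand), CACCC (bound by Krüppel-like factors, read as GGGTG) and CACGTG (an E-box, the same on both strands).
Alas2 (chrX:150547167-150547416, plus strand): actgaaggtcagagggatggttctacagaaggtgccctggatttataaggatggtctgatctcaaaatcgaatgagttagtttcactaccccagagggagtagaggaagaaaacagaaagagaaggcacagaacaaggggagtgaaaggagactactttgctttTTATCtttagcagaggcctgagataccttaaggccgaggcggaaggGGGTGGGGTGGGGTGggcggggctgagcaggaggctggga
Alas1 (chr9:106247955-106248204, minus strand): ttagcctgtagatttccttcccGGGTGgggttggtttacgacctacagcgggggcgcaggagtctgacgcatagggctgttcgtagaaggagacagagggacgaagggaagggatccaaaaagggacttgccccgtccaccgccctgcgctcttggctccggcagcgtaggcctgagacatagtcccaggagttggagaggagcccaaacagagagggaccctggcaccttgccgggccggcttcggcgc
Cpox (chr16:58669958-58670207, plus strand): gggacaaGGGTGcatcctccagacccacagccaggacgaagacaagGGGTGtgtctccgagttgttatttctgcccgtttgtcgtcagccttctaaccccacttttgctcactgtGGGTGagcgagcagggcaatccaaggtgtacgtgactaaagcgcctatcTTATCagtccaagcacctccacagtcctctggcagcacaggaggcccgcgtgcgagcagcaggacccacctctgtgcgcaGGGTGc
Urod (chr4:116994437-116994663, minus strand): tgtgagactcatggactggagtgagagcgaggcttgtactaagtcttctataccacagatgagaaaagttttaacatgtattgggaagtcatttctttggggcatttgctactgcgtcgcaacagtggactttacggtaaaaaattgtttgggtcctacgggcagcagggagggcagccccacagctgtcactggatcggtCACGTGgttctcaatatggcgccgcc

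The windows searched were the 250 bases before the annotated start, of which 227 are printed for Urod. Alas2 had 1 GATAA match and 3 CACCC matches, the latter in 1 unbroken run and all read on the other strand, and Cpox 1 and 4. Alas1 had no GATAA match and 1 CACCC match, and Urod had neither, but 1 E-box, as had Alad and Uros. Over 32851 windows of the same length, 22.6% held GATAA, 52% CACCC and 6.02% CACGTG. Cpox shares both kinds of match with Alas2, and its difference between the groups was -0.038. Whether the matches bear on any difference was not tested. Alas2 had 4 CpG pairs in its window and Alas1 16. None of these matches is shown to be a bound site.

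Among the cytosolic enzymes, Urod stood apart. It encodes uroporphyrinogen decarboxylase, which removes the carboxyl groups of the ring's acetate side chains. Its log2 level was 7.82, 8.01 and 7.92 in controls and 7.70, 7.77, 7.75, 7.74 and 7.72 in tumour-bearing mice. The highest tumour-bearing mouse lay 0.0463 below the lowest control, a small gap beside the 0.187 spanned by the controls. The means were 7.91 ± 0.09 (SD, n = 3) and 7.74 ± 0.03 (SD, n = 5), so the tumour-bearing mice were also closer together than the controls. The difference was -0.18 ± 0.051 SE (95% interval -0.29 to -0.064, limma adjusted p = 0.294), which is 1.13-fold. It ranged from -0.23 without control 1 to -0.13 without control 2. The pools were at 7.81 and 7.76, a difference of -0.049 in the same direction.

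Genes of myelin-forming oligodendrocytes also had lower values in the tumour-bearing mice. The summed linear level of 10 measured oligodendrocyte markers was 5860 to 6180 in controls and 4030 to 5890 in tumour-bearing mice, so the highest tumour-bearing mouse overlapped the controls. All 10 differences were below 0, with 0 called by limma and 8 at an unadjusted p under 0.05, where 5.82% of all tested probe sets were lower. Their median difference was -0.51, against -0.0031 over all tested. With the midbrain score as a covariate the Urod difference was -0.14 ± 0.079 SE (limma adjusted p = 0.961, against 0.145 to 0.961 over all alternatives). The part of the cell makeup in the Urod difference was not tested.

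Alad, which joins a pair of aminolevulinate molecules into porphobilinogen and is the enzyme blocked by lead, was at 9.39, 9.64 and 9.58 in controls and 9.53, 9.55, 9.58, 9.35 and 9.59 in tumour-bearing mice. In each group 1 array, control 1 and tumour-bearing mouse 4, stood below the rest. The difference was -0.017 ± 0.071 SE (95% interval -0.18 to 0.14, limma adjusted p = 0.963), and it turned positive without control 2 (0.033), control 3 (0.0074) or tumour-bearing mouse 4 (0.027), and with the replicate number as a block (0.017). Uros, uroporphyrinogen III synthase, closes the ring. It was at 6.42, 6.31 and 6.37 in controls and 6.23, 6.39, 6.32, 6.34 and 6.31 in tumour-bearing mice, with 2 of 5 below every control. The difference was -0.052 ± 0.065 SE (95% interval -0.20 to 0.094, limma adjusted p = 0.835), while the pools differed by 0.15 in the other direction.

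The last 3 enzymes work in or on the mitochondrion. Cpox, coproporphyrinogen oxidase, was at 7.29, 7.25 and 7.42 in controls and 7.42, 7.43, 7.19, 7.25 and 7.12 in tumour-bearing mice, which lay on both sides of the controls. Its difference was -0.038 ± 0.084 SE (95% interval -0.23 to 0.15, limma adjusted p = 0.917). Without control 3 it was 0.011, and without tumour-bearing mouse 5 it was 0.0029. Ppox, protoporphyrinogen oxidase, was at 7.03, 7.16 and 7.19 in controls and at 7.02, 7.04, 7.00, 7.14 and 7.14 in tumour-bearing mice, with 2 of 5 below every control. Its difference was -0.061 ± 0.062 SE (95% interval -0.20 to 0.079, limma adjusted p = 0.79).

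Fech, ferrochelatase, places iron into protoporphyrin and completes heme. Its log2 level was 7.31, 7.37 and 7.28 in controls and 7.25, 7.35, 7.51, 7.47 and 7.35 in tumour-bearing mice. Mice 3 and 4, which were also highest for Alas2, exceeded every control, and mouse 1 lay below every control. The difference was 0.065 ± 0.067 SE (95% interval -0.087 to 0.22, limma adjusted p = 0.794). Without mice 3 and 4 it was -0.0066. The pools were at 7.12 and 7.11, below all 8 individual arrays.

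Among the 6 enzymes with overlapping groups the widest bounds of the 95% intervals were -0.26 and 0.22 on the log2 scale. Between animals the 7 enzymes other than Alas2 varied little, with SDs of 0.03 to 0.20 within a group, against 0.32 and 0.85 for Alas2. In the pools the 7 differed by -0.19 to 0.15, and 5 of all 8 pool differences had the sign seen in the individual mice.

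**Figure D3:**
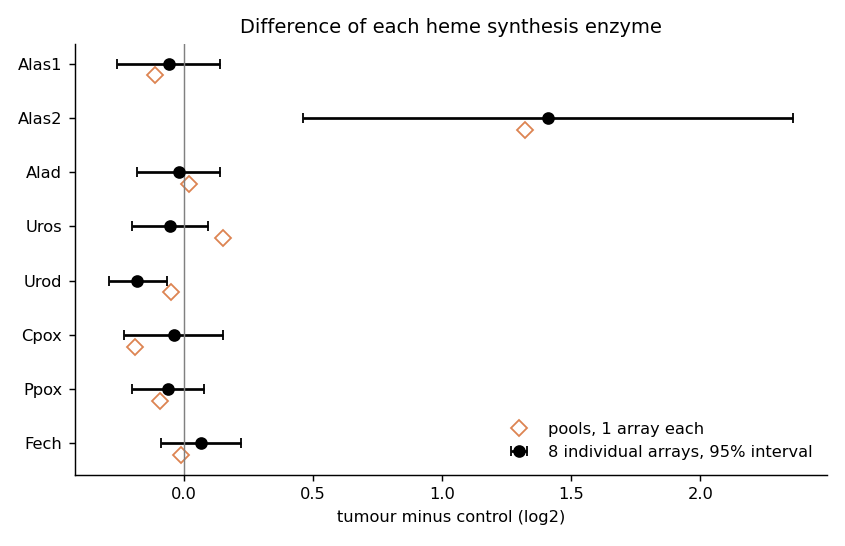
Difference between tumour-bearing and control mice (x axis, log2) for each heme synthesis enzyme, with filled points and 95% intervals from the fit to 8 individual arrays and open diamonds for the difference between the pools. The intervals of Alas2 (0.46 to 2.36) and Urod (-0.29 to -0.064) do not reach 0, although neither passed the adjusted threshold.

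Genes around the pathway were taken from 5 lists of carriers, heme breakdown enzymes, users and regulators. Of 43 listed genes 39 had a probe set of their own, 34 were tested and 0 were called in either direction. At an unadjusted p under 0.05, 3 were higher and 3 lower, against 4.71% and 5.82% of all tested probe sets. For 2 genes the whole tumour-bearing group was above the control group, and for 1 gene below it, against 3.28% and 4.17% of all tested. The median difference was -0.023, against -0.0031 over all tested.

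The carriers of substrates and intermediates had 12 tested members of 14, with 5 differences above 0 and 7 below. Slc25a37, mitoferrin 1, brings iron into the mitochondria of developing red cells. It was at 6.26, 6.35 and 6.45 in controls and 6.55, 6.52, 7.11, 6.49 and 6.40 in tumour-bearing mice, again highest in mouse 3. The difference was 0.26 ± 0.15 SE (limma adjusted p = 0.587). It was 0.13 without mouse 3 and turned to -0.049 with the midbrain covariate. Tspo, a protein of the outer mitochondrial membrane that binds porphyrins, differed by -0.27 ± 0.15 SE (adjusted p = 0.565), with control 1 at 5.84 and the other controls at or below 5.34. Pgrmc1, a heme-binding partner of ferrochelatase chosen after its values were seen, was at 10.40, 10.39 and 10.51 in controls and 10.51 to 10.68 in tumour-bearing mice (0.16 ± 0.046 SE, limma adjusted p = 0.296).

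Of the 3 heme breakdown genes tested, 0 were called by limma and 0 had an unadjusted p under 0.05. Hmox1, the inducible heme oxygenase, was at 5.53, 5.38 and 5.53 in controls and 5.56, 5.42, 5.55, 5.38 and 5.44 in tumour-bearing mice. Its difference was -0.0066 ± 0.089 SE (95% interval -0.21 to 0.19, limma adjusted p = 0.99). The biliverdin reductases Blvra and Blvrb differed by -0.026 and -0.12 (adjusted p = 0.932 and 0.661), and Hmox2 had no probe set of its own. Of the carriers of heme itself, 4 of 7 were tested. Slc48a1, which moves heme out of lysosomes, differed by -0.13 ± 0.054 SE and Flvcr2, a membrane transporter, by -0.043 ± 0.12 SE (limma adjusted p = 0.438 and 0.934). The plasma carrier genes Hp and Hpx and the scavenger receptor gene Cd163 lay below the filter level in both groups.

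Of 8 genes for heme A synthesis and heme proteins, Ngb had the largest difference. It encodes neuroglobin, an oxygen-binding heme protein of neurons that is abundant in the hypothalamus. Its log2 level was 7.30, 7.44 and 7.45 in controls and 7.75, 7.54, 7.70, 7.78 and 7.86 in tumour-bearing mice, all 5 above every control. The means were 7.39 ± 0.08 (SD, n = 3) and 7.72 ± 0.12 (SD, n = 5), a 1.26-fold difference (log2 0.33 ± 0.074 SE, limma adjusted p = 0.219). The pools were at 7.40 and 7.70. Without any 1 animal the difference was 0.28 to 0.38, and with the midbrain covariate 0.25 (limma adjusted p = 0.961, against 0.0602 to 0.961 over all alternatives). The 10 tested hypothalamic markers had a median difference of 0.26, with 8 above 0 and 2 below, against -0.0031 over all tested probe sets. The part of the cell makeup in the Ngb difference was not tested. Cyc1, the cytochrome c1 subunit of respiratory complex III, differed by -0.11 ± 0.050 SE (limma adjusted p = 0.479).

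The regulators had 7 tested members of 10. Bach1, a repressor that heme itself releases from DNA, was at 6.44, 6.45 and 6.38 in controls and 6.92, 6.60, 6.58, 6.55 and 6.58 in tumour-bearing mice, with mouse 1 well above the rest. Its difference was 0.23 ± 0.092 SE (limma adjusted p = 0.435), although the groups did not overlap. Aco1, the cytosolic aconitase that becomes an iron-regulatory protein when its iron-sulfur cluster is lost, had lower values. It was at 7.78, 7.77 and 7.79 in controls and 7.58, 7.69, 7.58, 7.66 and 7.65 in tumour-bearing mice, so the groups did not overlap (-0.15 ± 0.046 SE, limma adjusted p = 0.327). The pools were at 7.98 and 7.84, both above every individual array but in the same order. Ppargc1a, a coactivator that induces Alas1 in fasting liver, was chosen after its values were seen and differed by -0.10 ± 0.045 SE (limma adjusted p = 0.473).

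**Figure D4:**
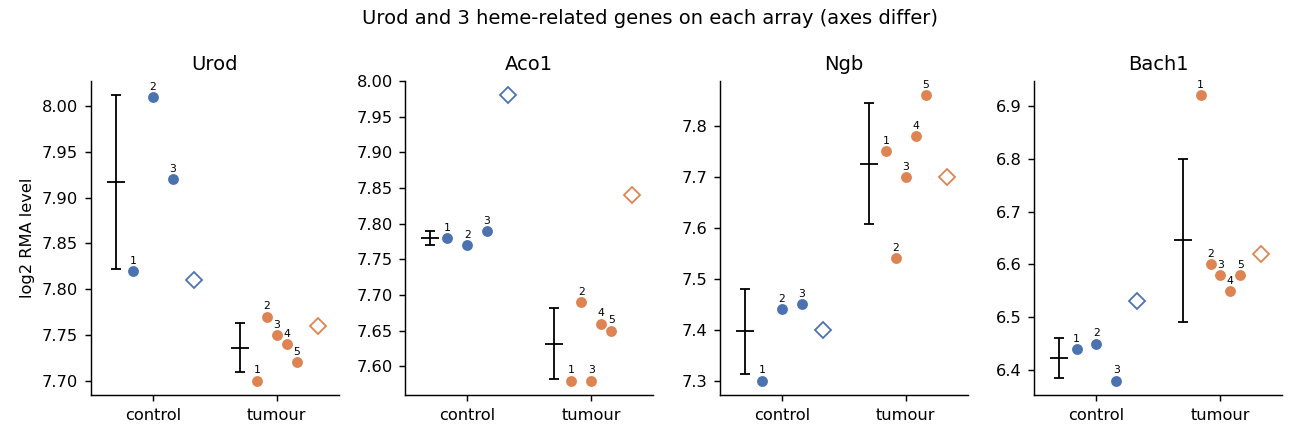
Log2 RMA level (y axis, different range in each panel) of Urod, the iron-regulatory aconitase Aco1, the neuronal heme protein Ngb and the heme-sensing repressor Bach1, with numbered points for single mice, bars for mean ± SD and open diamonds for the pools. In each panel the 3 controls and 5 tumour-bearing mice do not overlap, and no gene passed the adjusted threshold.

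The dissected tissue carried hypothalamic markers on every array, with Hcrt at 10.54 to 10.87 and Oxt at 8.68 to 10.06 on the individual arrays. Array medians were 5.27 to 5.32 and correlations between individual arrays 0.98 to 0.989. Of the other marker lists, the median difference was -0.72 for midbrain, 0.59 for pituitary, 0.16 for choroid plexus, -0.19 for microglia, 0.054 for endothelium, -0.018 for astrocytes, -0.0098 for neurons and 0.26 for hypothalamus, with 0 genes called by limma in each. At an unadjusted p under 0.05 there were 8 lower midbrain genes of 9 tested, 5 higher hypothalamic genes of 10, 2 higher and 2 lower astrocyte genes of 8, 1 higher microglial gene of 6, 1 lower endothelial gene of 7, and 0 in the pituitary, choroid plexus and neuron lists. Of all tested probe sets 4.71% were higher and 5.82% lower at that level, and the median difference was -0.0031. The pituitary median rested on 3 tested genes and was the difference of Cga, at 7.71 in control 1 and 6.29 and 6.10 in controls 2 and 3. The choroid plexus median rested on 4 tested genes. The liver list had 2 tested genes, with a median of 0.10.

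**Figure D5:**
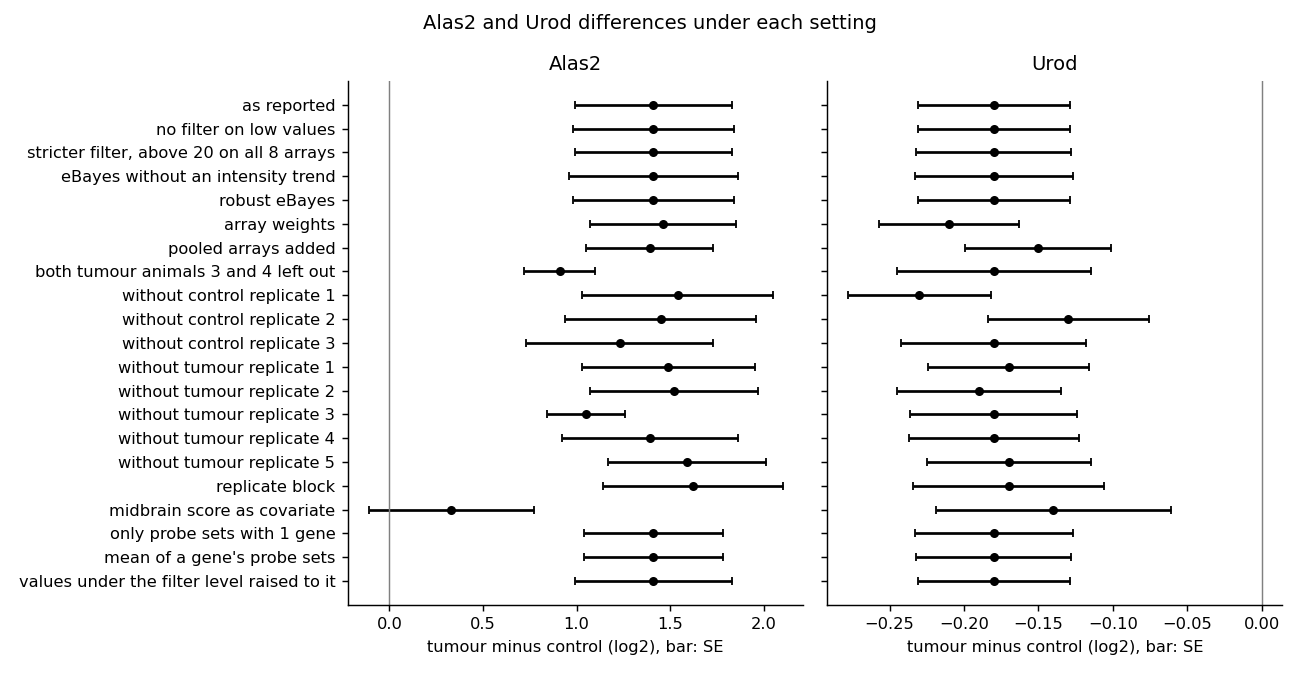
Difference of Alas2 (left) and Urod (right) between tumour-bearing and control mice (x axis, log2, with SE bars) under the reported setting and each alternative. Both kept their direction throughout, and Alas2 came nearest to 0, at 0.33, with the midbrain score as a covariate.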

How the data were processed

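Deposited values are log2 expression levels; the submitters' processing notes name RMA as the authors' method. Its version, probe set definition and whether all 10 arrays were processed together are not given in the sources used here. No label states the log base, and log2 was taken from how the values spread. Because RMA equalises the arrays' distributions, a change common to most transcripts would be removed, and folds are compressed. Probe sets were named through the platform annotation, and 0 of 21218 single-gene symbols changed against RefSeq. The 22837 probe sets with a log2 level over 4.32 (20 before the log) in 3 or more of the 8 single-mouse arrays were fitted with limma 3.58.1 in R 4.3.3 (lmFit, eBayes with an intensity trend), with Benjamini-Hochberg adjustment over all of them. Pools entered 1 alternative only. The fit was tested on simulated data with 3 against 5 arrays, where changes were given to 200 probe sets picked at random. It recovered 41.8% of the changes of 0.5 on the log2 scale, 94% of those of 1 and 97% of those of 2. With no change simulated, 0 were called. Changes under 0.5, such as that of Urod, were not simulated. Levels of different probe sets are not compared.

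The enzymes and lists were chosen with earlier results of these data known. Named were all enzymes, 2 genes with the largest difference in each pathway list (all for heme breakdown), the 3 genes most like Alas2, and marker genes only where a result turns on them. The number of arrays limits the precision. Nothing in the labels pairs same-numbered mice, and their deviations from the group means correlated at -0.00199 to 0.00891. Motif matches were counted in Python 3.11.15.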

Additional observations from a re-analysis of the deposited data

Results flagged for a closer look

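The check covered 51 genes: all enzymes, pathway list genes, the genes most like Alas2, and marker genes, some of them not named above. Tal1 was not among them. For the highest and lowest of the 5 tumour-bearing mice, the gap to the nearest mouse was divided by the range. This was set against Dixon's critical value of 0.71, which chance passes in about 1 in 20 groups. It was passed by 4 genes. Tumour-bearing mouse 4 was lowest for Alad, at 9.35, with the next mouse at 9.53. Mouse 3 was highest for Slc25a37, at 7.11 with the next at 6.55, and for Slc4a1, at 5.96 with the next at 4.43. Mouse 1 was highest for Bach1, at 6.92 with the next at 6.60. Alas2 in mouse 3 did not pass, with a gap over range of 0.623.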

How the results depend on the processing

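Under the 20 alternatives 0 of the 8 enzymes were called, and Alas2 (0.33 to 1.62), Uros (-0.079 to -0.021), Urod (-0.23 to -0.13) and Ppox (-0.11 to -0.022) kept their direction. The smallest adjusted p was 0.118 for Alas2 and 0.145 for Urod. With single mice left out the differences were 1.05 to 1.59 for Alas2, -0.17 to 0.019 for Alas1, -0.091 to 0.033 for Alad, -0.076 to 0.011 for Cpox and 0.033 to 0.10 for Fech. Without tumour-bearing mice 3 and 4 together, Alad (0.020), Cpox (0.0037) and Fech (-0.0066) changed sign. With the midbrain covariate Alas1 (0.10), Cpox (0.10) and Fech (-0.024) did. With the replicate number as a block, which the labels do not support as a pairing, Alad (0.017) and Cpox (0.028) did, Alas2 was 1.62 and 0 probe sets were called. The causes were not tested.

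Probe sets called numbered 13 as reported and 2 to 69 with single mice left out. They were 5 without a filter, 4 without an intensity trend, 24 with array weights, 0 without tumour-bearing mice 3 and 4, 0 with the midbrain covariate, 72 with only single-gene probe sets tested and 76 with probe sets averaged per gene. In the latter pair of settings 2 and 2 midbrain genes and 2 and 2 hypothalamic genes were called, and 1 astrocyte gene with the mean. Without tumour-bearing mouse 2 there were 3 midbrain, 2 hypothalamic, 1 oligodendrocyte and 1 astrocyte genes, and 0 of each without any other single mouse. Raising values to the filter level was chosen after seeing the data.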
